A study of Ovis aries with 7 samples.

Results

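The genes described here are the cytokines, chemokines and receptors on a sheep oligonucleotide array other than the classical inflammatory set of IL1B, IL6, IL8 and TNF. They were taken by name: every non-control probe whose gene name starts with IL and a digit, CCL, CXCL, CCR, CXCR, TNF, IFN or CSF, with IL1B, IL6, IL8, CXCL8 and TNF left out. The rule used no measured value. It gave 28 genes with 52 probes, out of 15008 probes on the array. A gene was represented by its probe with the highest mean level over all 7 arrays.

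The samples were hypothalami of late-gestation sheep fetuses (Ovis aries) that carried indwelling catheters, with 1 array per fetus. In the hypoxia group of 3 fetuses the ewe breathed gas low in oxygen for 30 min and normal gas for a further 30 min. The control group of 4 fetuses stayed at normal oxygen for both 30 min periods. Tissue was taken 60 min after the start of the exposure, and neither genotype, sex nor exact age is used here. The hypothalamus was measured as bulk tissue, so that fewer cells of a type and less RNA per cell cannot be told apart in any value below.

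Cytokines are secreted signals between cells, and each acts through a receptor on its target. Interleukins and interferons signal mostly through Janus kinases and STAT factors, while the interleukin-1 and TNF families act largely through NF-kappaB. Chemokines bind receptors coupled to G proteins and guide the movement of leukocytes. In the brain, microglia, astrocytes, endothelium and some neurons make or sense these signals, and interleukin-1 and interferons are known to act on the hypothalamus in fever and in the stress response.

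The probes are 60 bases long, and for many of these genes the array carries overlapping pairs, so that 1 transcript was read more than once. A 30-base stretch is shown for the genes that the comparison turns on, written 5′ to 3′ in the sense of the messenger RNA, with capitals for bases that both probes of a pair share. The IL18 pair and the IL15 pair are shown because the first gave like values from both probes and the second did not.
IL18, end of the upstream probe: gagaagtgttCCAGGACATGATGATAAGAT
IL18, start of the downstream probe: CCAGGACATGATGATAAGATacaatttgag
IL15, end of the upstream probe on an expressed sequence tag: aatttcattaTTGATATACAAGGCCCTTCT
IL15, start of the downstream probe on the same tag: TTGATATACAAGGCCCTTCTtcttgctgtt
IL15, end of the upstream probe on the RefSeq transcript: aatagaaaatcttaCCATGCTAGCAGACAG
IL15, start of the downstream probe on the RefSeq transcript: CCATGCTAGCAGACAGaaatttatcttcta
CXCL10, start of its only probe: gcaggctatgtaagacaaatatgctaaatg
IFN1, start of its only probe: aagtcttgagagccttctcttcctcaacaa
TNFRSF1A, start of its only probe: taagaacaaggagtgtgagaagttatgtcc
IL1A, start of the probe used: agttgcccatccaaagttgttcattgccac
The shared stretch is 20 bases in the IL18 pair, 20 bases in the first IL15 pair and 16 bases in the second. Over all 52 probes the letters ATTTA, the core of the AU-rich elements known from unstable cytokine transcripts, were searched on the sense strand alone, with overlapping matches allowed. They occurred in 5 probes (9.62%), against 8.04% of all 15008 probes. Those 5 were both probes of CCR3, both RefSeq probes of IL15 and the third probe of IL18. In CCR3 the match lies in the bases that both probes share, so it is 1 site counted in both. A probe covers only 60 bases, so these counts do not describe the AU-rich elements of whole transcripts.

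Many of the genes were near the limit of detection. The scanner software calls a spot well above background when its signal clearly exceeds the local background. By that call, 24 of the 52 probes were seen on all 7 arrays, 17 on none and 11 on some. For 17 of the 28 genes the representing probe was seen on every array. No probe was seen on any array for CCR9, CSF, IL12B, IL13, IL4 and IL7, and IL2 was seen on 1 hypoxia and 1 control array. These 7 genes were not tested. They include IL4 and IL13, which drive type 2 immunity and lie next to each other in the RefSeq assembly, and IL7 and IL2, growth factors of lymphocytes. CCR9 is the receptor of CCL25, IL12B is the shared subunit of interleukin-12 and interleukin-23, and the probe named CSF is described as granulocyte colony stimulating factor. No gene was detected in every fetus of 1 group and in none of the other. Between 17 and 22 of the 28 genes were seen on each array, 19, 22 and 18 on hypoxia replicates 1 to 3 and 17, 19, 19 and 22 on control replicates 1 to 4.

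**Figure D1:**
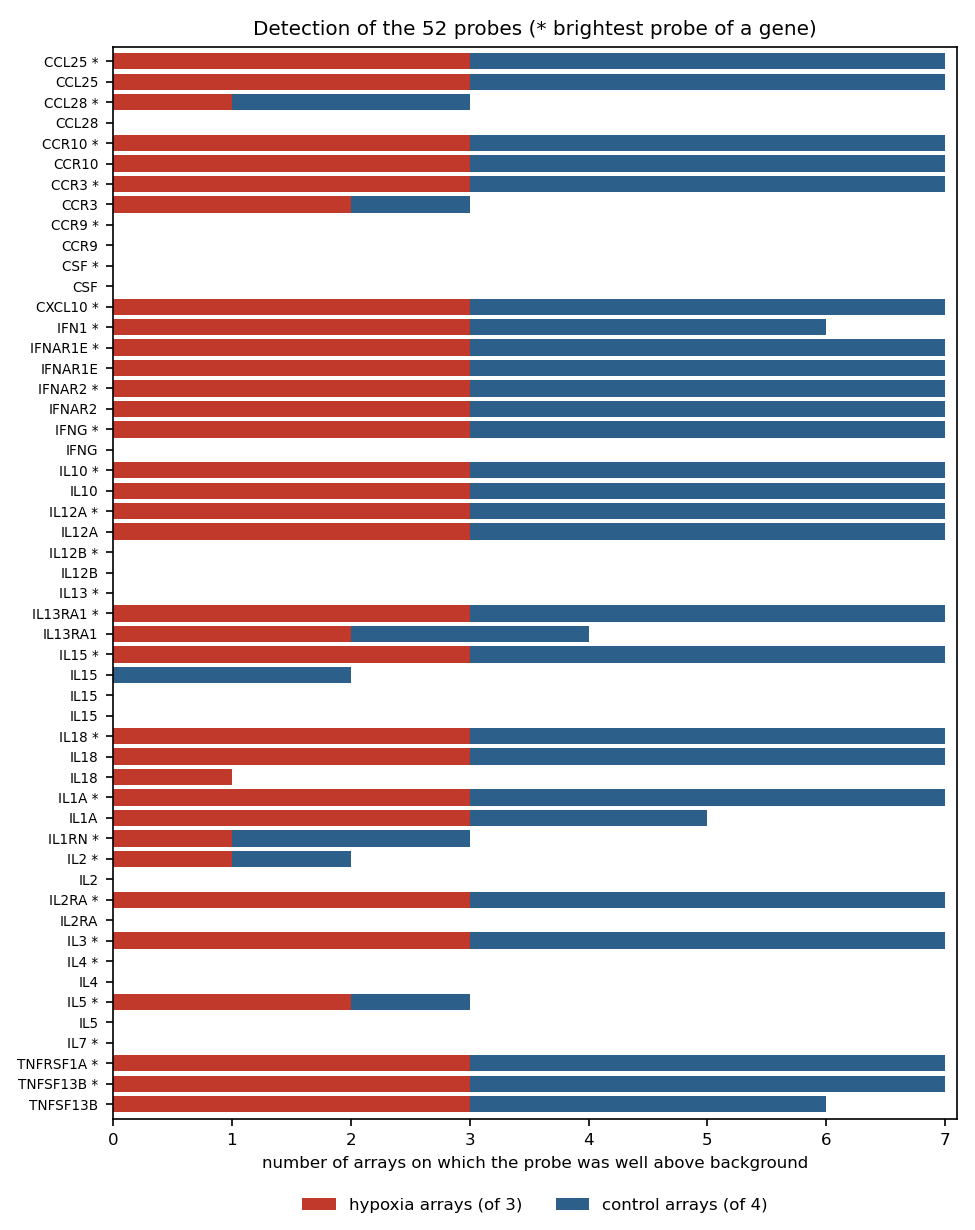
Number of arrays (x axis, 0 to 7) on which each of the 52 probes (rows, an asterisk for the probe that represents the gene) was well above background, split into hypoxia and control arrays. A row without a bar is 1 of the 17 probes seen on no array, such as both probes of IL4, CCR9 and IL12B.

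The arrays were alike in brightness, with a 75th percentile of the processed signal between 2024 and 2908 and 77.3% to 86.4% of probes well above background. All values below are levels on the log2 scale, relative to that percentile of the same array, and RNA integrity numbers ran from 7.4 to 8.4. All 3 hypoxia arrays were on slide 1, control replicates 1 and 2 on slide 2 and control replicates 3 and 4 on slide 3, each slide with its own scan time, so slide and group cannot be told apart. Lists of marker and signalling genes were matched to probes by gene name or RefSeq accession, so a probe under another name may be missed. Hypothalamic neuropeptide genes checked the tissue. OXT, POMC, NPY, AGRP, SST and GNRH1, the 6 so matched of 10 listed, were well above background on all 7 arrays. Control replicate 4 stood apart in some pituitary hormone genes. PRL was at 1.13 against -5.14 to -3.46 in the other 6 fetuses, and GH was well above background on that array alone. FSHB was at -3.09 there against -9.60 to -6.09, while CGA at -2.51 and LHB at 2.31 lay within the range of the others. The same fetus had OXT at -1.12 against 1.01 to 2.57 in the others, and GNRH1 at -6.20 against -4.66 to -3.23. In the other direction, its POMC was at 1.99 against 0.71 to 1.52 and its NPY at 2.13 against 0.84 to 1.86. AGRP at -0.53 and SST at 4.21 lay within the range of the others. The red cell gene HBB was at 5.20 in this fetus against 2.03 to 4.12.

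The comparison asks how a short hypoxic exposure changed the immune signals of the hypothalamus. None of the 21 tested genes passed the adjusted threshold of 0.05 in limma with Benjamini-Hochberg adjustment over all 12711 tested probes, of which 2 passed (0.0157%). The smallest adjusted p of the 21 was 0.180, for IL15. At an unadjusted p under 0.05 there were 5 genes, which is 23.8% of the 21 against 15.7% of all tested probes. IL15, IL18 and IFN1 were the higher ones after hypoxia, against a background of 8.75% in that direction, and CXCL10 and TNFRSF1A were the lower ones, against 6.91%. By quantile normalization the 5 became 1 higher and 2 lower, where 15.3% of all probes were under 0.05. In the deposited values without scaling, IL15, IFN1 and IL5 were higher and CXCL10 was lower, where 7.72% of all probes were under 0.05. IL18 and TNFRSF1A were not under 0.05 there, and IL5 was not among the 5. The shares of these genes were not tested against those of all probes. Of the 21 differences, 14 were above 0 (66.7%), against 54.7% of all probes, and the median difference was 0.13 against 0.028. The lowest was -1.18 and the highest was 0.92. This lean depended on the settings. Among probes well above background on all 7 arrays, 10 of 17 genes were above 0, with a median of 0.0545 against 0.0112. By quantile normalization 12 of the 21 were above 0, with a median of 0.016 against -0.0029. In 3 genes the groups did not overlap, IL15, IL18 and CXCL10, where 16.2% of all probes with values on every array had such separated groups, 8.77% with hypoxia above and 7.39% with hypoxia below.

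**Figure D2:**
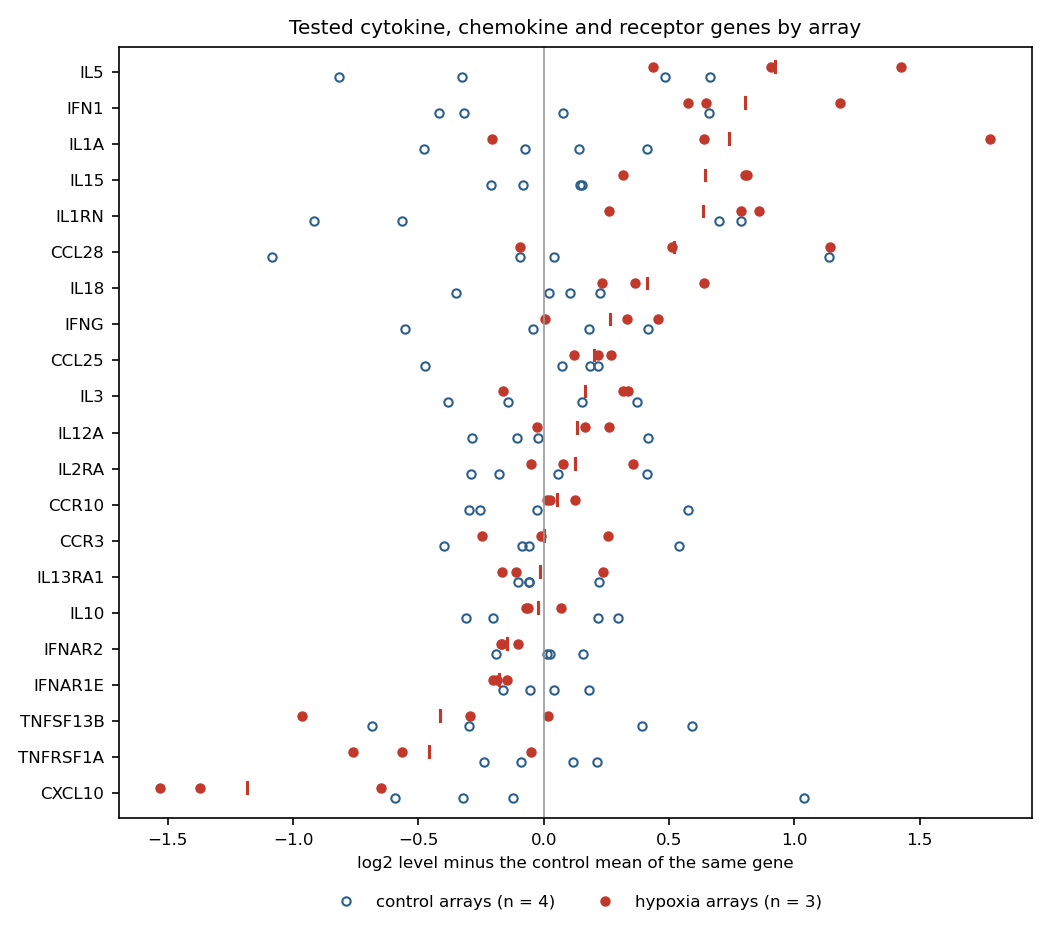
Level of each tested gene on each array (filled points, 3 hypoxia arrays; open points, 4 control arrays) minus the gene's control mean, on the log2 scale, with a tick at the hypoxia mean; genes are ordered by that mean. All hypoxia points of IL15 and IL18 lie above all of their control points and those of CXCL10 lie below, while the other 18 genes overlap.

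The 3 tested ligands of the interleukin-1 family all had differences above 0, and none passed the adjusted threshold. IL18, a partner of interleukin-12 in inducing interferon-gamma, had levels of -2.74, -3.01 and -3.15 in hypoxia replicates 1 to 3 and -3.73, -3.16, -3.36 and -3.27 in control replicates 1 to 4. The groups were adjacent without overlap, as hypoxia replicate 3 and control replicate 2 nearly met. The hypoxia mean was higher by 0.41 ± 0.17 (SE), a fold of 1.33 with a 95% interval of 0.020 to 0.80 on the log2 scale (limma adjusted p = 0.300). The overlapping second probe of IL18 gave -2.73, -3.10 and -2.84 against -3.77, -3.40, -3.50 and -3.32, again without overlap. Its difference was 0.61 ± 0.15 (SE; limma adjusted p = 0.172). The third IL18 probe, on an expressed sequence tag, was well above background on 1 of the 7 arrays and was not tested. Leaving out hypoxia replicate 1 or control replicate 1 brought the IL18 difference to 0.30.

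IL1A, the alpha form of interleukin-1 that acts as an alarm signal, differed most among the hypoxia fetuses. Its levels were -4.62, -3.48 and -5.47 after hypoxia and -5.74, -5.34, -5.12 and -4.85 in controls. Hypoxia replicates 1 and 2 lay above every control and hypoxia replicate 3 lay below 3 of the 4. The difference was 0.74 ± 0.44 (SE; limma adjusted p = 0.438), and the second probe of IL1A, which shares no base with the first, gave 0.94 ± 0.49 (limma adjusted p = 0.387). The value rested on single fetuses, being 0.22 without hypoxia replicate 2 and 1.21 without hypoxia replicate 3. On hypoxia replicate 2 the chemokine gene IL8 was also at -1.20, against -5.25 to -4.48 on the other 6 arrays. IRF1, an interferon-responsive transcription factor, was at -2.23 there, against -5.01 to -4.30 elsewhere. The part of that fetus's wider response in the IL1A value was not tested.

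IL1RN, the antagonist of the interleukin-1 receptor, was well above background on 1 hypoxia and 2 control arrays. Its levels of -7.47, -6.87 and -6.94 overlapped those of control replicates 3 and 4, at -6.94 and -7.03, and lay above those of control replicates 1 and 2, at -8.29 and -8.64. The difference of 0.64 ± 0.45 (SE; limma adjusted p = 0.506) was 1.38 against the controls of slide 2 and -0.11 against those of slide 3.

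IL15 had the smallest p among the representing probes (0.00503 in limma, unadjusted), although the second IL18 probe had a smaller one, 0.00394. This interleukin sustains natural killer cells and memory T cells. Its levels were -4.68, -4.20 and -4.19 after hypoxia and -5.21, -5.08, -4.86 and -4.85 in controls. Every hypoxia fetus was above every control, with hypoxia replicate 1 nearest to the control range. The means were -4.36 ± 0.28 (SD, n = 3) and -5.00 ± 0.18 (SD, n = 4). The difference of 0.64 ± 0.16 (SE) is a fold of 1.56, with a 95% interval of 0.26 to 1.03 on the log2 scale and an adjusted p of 0.180 in limma. It was 0.79 against the controls of slide 2 alone and 0.50 against those of slide 3 alone. With normexp background correction it was 0.39.

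The IL15 value came from 1 of 4 probes. As shown above, its overlapping neighbour shares 20 bases with it, yet that neighbour was well above background on none of the 7 arrays. The RefSeq pair was seen on 2 control arrays for the upstream probe and on none for the downstream one. The 3 dim probes were not tested, and their measured differences were 0.11, -0.28 and -0.59, which near background carry no direction. The IL15 difference thus has no second measured probe beside it, in contrast to IL18.

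Of the interleukins known mainly from T cells, IL3 and IL5 were tested and neither passed the adjusted threshold. IL5, the growth and survival factor of eosinophils, had a measured difference of 0.92 ± 0.40 (SE; limma adjusted p = 0.322). Its levels were -6.34, -6.86 and -7.33 against -8.59, -7.11, -8.10 and -7.29, so that control replicates 2 and 4 overlapped the hypoxia range. The probe was well above background on 2 of 3 hypoxia and 1 of 4 control arrays, so the control level is mostly background. The difference was 0.25 with normexp correction and 0.67 without hypoxia replicate 1. IL3, a growth factor of haematopoietic progenitors whose gene neighbours CSF2 in the RefSeq assembly, was measured on all arrays with 5 spots per array. Its difference was 0.16 ± 0.21 (SE; limma adjusted p = 0.733), with hypoxia levels of -4.74 to -4.24 inside control levels of -4.96 to -4.21.

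Markers of T cells moved in part with the groups. Of 8 T-cell markers listed, 5 were matched to probes. The log2 of their summed level was -0.14 to 0.44 after hypoxia and -0.74 to -0.46 in controls. That sum follows CD247, a signalling chain of the T-cell receptor that was 1.17 higher (limma adjusted p = 0.0888). By contrast, the receptor chains CD3E and CD3D had differences of -1.08 and -0.53 (limma adjusted p = 0.131 and 0.30). The groups were separate for CD247 and CD3E. CD5 had a difference of 0.39 with overlapping groups (limma adjusted p = 0.528). CD4 was well above background on no array. For microglia and macrophages 2 of 11 markers were matched, CD14 and ITGAM. Their summed level was -2.50 to -2.23 after hypoxia and -2.82 to -2.32 in controls. Of 7 markers of meninges and fibroblasts, 4 were matched and all of these were well above background on every array. Their summed level was 3.57 to 4.07 after hypoxia and 4.04 to 4.90 in controls. Among them TIMP1 and COL3A1 had differences of -0.74 and -0.69 with separate groups (limma adjusted p = 0.124 and 0.265). IGFBP2, the highest of them in level, had -0.93 with overlapping groups (limma adjusted p = 0.225). DCN had -0.28, also with overlapping groups (limma adjusted p = 0.613). The part of cell composition in the cytokine values was not tested.

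IL10 and IL12A, which come chiefly from monocytes and dendritic cells, were well above background on all arrays and differed little. IL10, an anti-inflammatory cytokine, had hypoxia levels of -3.44, -3.43 and -3.30, all between the lowest control level of -3.68 and the highest of -3.07. Its difference was -0.022 ± 0.17 (SE), with a 95% interval of -0.42 to 0.38, and it was 0.014 in the deposited values without scaling. The second IL10 probe gave 0.082. IL12A, a subunit of interleukin-12, had a difference of 0.13 ± 0.18 (SE), with an interval of -0.28 to 0.55, and its second probe gave 0.21.

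The chemokine ligands were CCL25, CCL28 and CXCL10. CXCL10, a chemokine induced by interferons that attracts activated T cells through CXCR3, had the largest difference downwards. Its processed signal, before scaling, was 153.5, 214.7 and 124.5 after hypoxia and 289.4, 247.8, 295.2 and 744.8 in controls. On the log2 scale the levels were -4.08, -3.36 and -4.24 against -2.83, -3.03, -3.30 and -1.67. Hypoxia replicate 2 nearly met control replicate 3, and control replicate 4 stood above all other fetuses. The difference was -1.18 ± 0.40 (SE), a 2.27-fold lower level, with a 95% interval of -2.12 to -0.24 and a limma adjusted p of 0.250. Without control replicate 4, which also stood apart in several hormone genes and HBB, it was -0.84. The difference lost its unadjusted limma p under 0.05 without hypoxia replicate 1 or without hypoxia replicate 3. Against the controls of slide 2 it was -0.96 and against those of slide 3 it was -1.41. The probe is printed 5 times on each array, and the SD between those spots of 1 array, which measures printing and reading alone, was 0.065 to 0.18.

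CCL25, which recruits T cells to thymus and gut, had levels of -1.98, -1.89 and -1.83 after hypoxia and -2.03, -1.92, -2.57 and -1.88 in controls. Apart from control replicate 3, all fetuses lay close together, and the difference was 0.20 ± 0.18 (SE; limma adjusted p = 0.606). It was 0.043 without control replicate 3. CCL28, a mucosal chemokine that binds CCR10 and CCR3, was well above background on 1 hypoxia and 2 control arrays, and its difference of 0.52 ± 0.51 (SE; limma adjusted p = 0.642) was smaller than the spread of its controls. It was 0.16 without control replicate 1, 0.21 without hypoxia replicate 2, 0.83 without hypoxia replicate 1, 0.90 without control replicate 2 and 0.14 with normexp correction.

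The interferon ligands were IFN1, described on the array as interferon-alpha 4, and IFNG, which is interferon-gamma. IFN1 had levels of -6.36, -6.29 and -5.75 after hypoxia and -6.86, -6.27, -7.25 and -7.35 in controls. Only control replicate 2 reached the hypoxia range. The difference was 0.80 ± 0.28 (SE), a fold of 1.74 with a limma adjusted p of 0.260. The probe was well above background on 3 of 3 hypoxia and 3 of 4 control arrays, and with normexp background correction the difference was 0.29. It was 0.43 against the controls of slide 2 and 1.17 against those of slide 3. Interferon-alpha genes form a family of close copies, so the probe may read more than 1 of them. IFNG had levels of -5.06, -4.73 and -4.61 against -5.11, -4.88, -5.62 and -4.65, overlapping throughout, with a difference of 0.26 ± 0.24 (SE; limma adjusted p = 0.606). This was 0.080 without control replicate 3, 0.17 without hypoxia replicate 3 and 0.40 without control replicate 4. Its second probe was seen on no array.

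**Figure D3:**
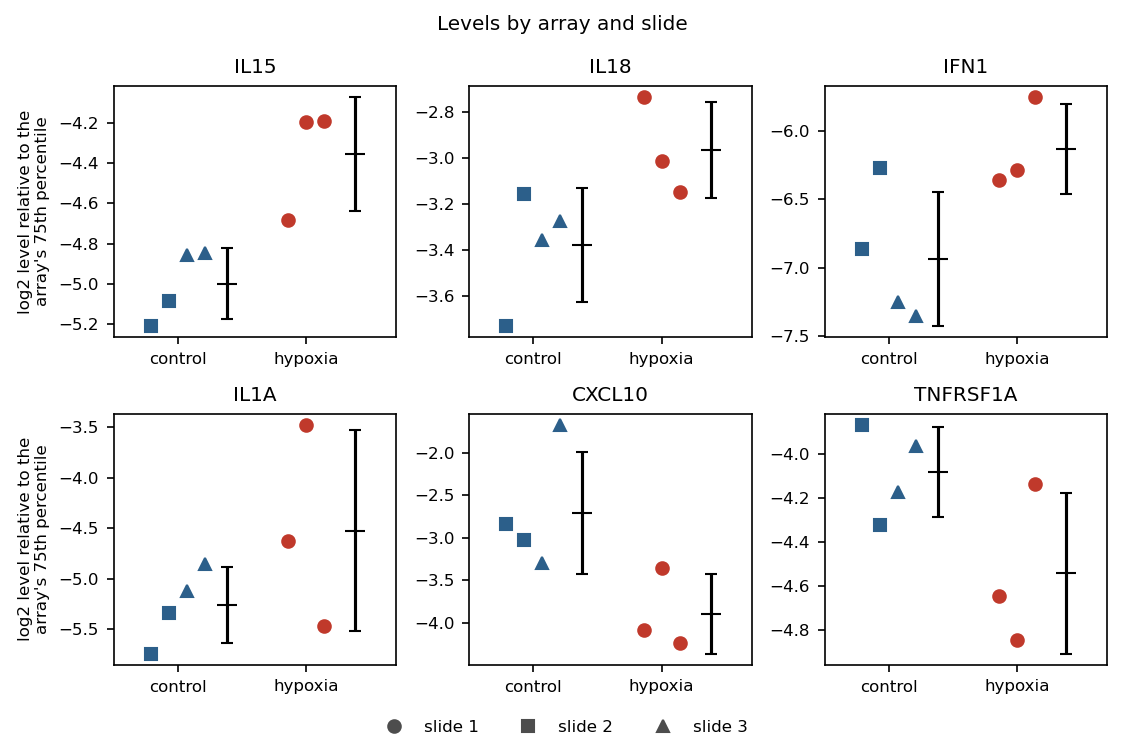
Level (log2, relative to the array's 75th percentile) of 6 genes on each array, with symbols for the slide and a bar for the group mean ± SD (control n = 4, hypoxia n = 3). Groups are separate for IL15, IL18 and CXCL10; in IL1A the hypoxia fetuses range from -5.47 to -3.48 and in CXCL10 control replicate 4 is at -1.67.

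TNFSF13B, the B-cell survival factor also called BAFF, was the only TNF family ligand by this rule. Its levels of -5.69, -6.00 and -6.67 overlapped control levels of -6.39, -5.31, -6.00 and -5.11. The difference was -0.41 ± 0.36 (SE; limma adjusted p = 0.596), and the second probe gave -0.037. It was -0.14 without hypoxia replicate 3 and also with normexp correction, -0.22 without control replicate 4 and -0.64 without control replicate 1.

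Among the receptors, none of the 7 tested passed the adjusted threshold. TNFRSF1A, the main receptor of TNF, had levels of -4.64, -4.84 and -4.13 after hypoxia and -3.87, -4.32, -4.17 and -3.96 in controls. Hypoxia replicates 1 and 2 lay below all controls and hypoxia replicate 3 lay among them. The difference was -0.46 ± 0.19 (SE), a 1.38-fold lower level, with a 95% interval of -0.91 to -0.0055 and a limma adjusted p of 0.315. It was -0.24 with normexp correction and between -0.66 and -0.31 when each fetus was left out in turn.

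Both chains of the type I interferon receptor were well above background in every fetus with small differences. The gene named IFNAR1E on the array, IFNAR1 in RefSeq, had levels of 2.92, 2.88 and 2.86 after hypoxia and 3.24, 3.01, 3.10 and 2.90 in controls. The 3 hypoxia fetuses differed by little, and only control replicate 4 fell within their range. The difference was -0.18 ± 0.11 (SE; limma adjusted p = 0.454), and the second probe gave -0.16. IFNAR2, the other chain, had levels of -0.23, -0.23 and -0.16 against 0.09, -0.05, -0.25 and -0.04. Its difference was -0.15 ± 0.11 (SE; limma adjusted p = 0.534), and its second probe gave -0.041. The 95% intervals, -0.44 to 0.080 for IFNAR1E and -0.41 to 0.11 for IFNAR2, are the narrowest of the 21.

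The interleukin receptors on the array were IL2RA, the high-affinity chain of the interleukin-2 receptor, and IL13RA1, a chain shared by interleukin-13 and interleukin-4 signalling. IL2RA had a difference of 0.13 ± 0.19 (SE; limma adjusted p = 0.776), which was -0.074 by quantile normalization, and its second probe was seen on no array. IL13RA1 had levels of -2.43, -2.83 and -2.77 against -2.72, -2.77, -2.44 and -2.72, and a difference of -0.014 ± 0.14 (SE), which was 0.021 with normexp correction and 0.023 in the deposited values. The other IL13RA1 probe lies next to the first with no shared base and was well above background on 4 of 7 arrays. It gave 1.22 ± 0.55 (SE; limma adjusted p = 0.341). Its levels were -7.25 to -6.54 after hypoxia. Control replicates 1 and 2, on slide 2, were near background at -8.83 and -9.07. Control replicates 3 and 4, on slide 3, were at -6.80 and -7.46.

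The chemokine receptors CCR3, of eosinophils, and CCR10, of skin- and mucosa-homing lymphocytes, differed by 0.0004 and 0.054, with 95% intervals of -0.54 to 0.54 and -0.44 to 0.55. The CCR3 difference was -0.032 with median scaling and -0.12 by quantile normalization. The second probe of CCR10, which shares 59 of its 60 bases with the first, gave 0.22 ± 0.11 (SE; limma adjusted p = 0.354), with hypoxia values above all controls.

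Of the 11 genes with 2 or more tested probes, 9 had differences of the same sign in all of them and 2, IL10 and IL13RA1, did not. For IFNG, IL15 and IL2RA, a probe seen on all arrays stood beside one seen on none.

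**Figure D4:**
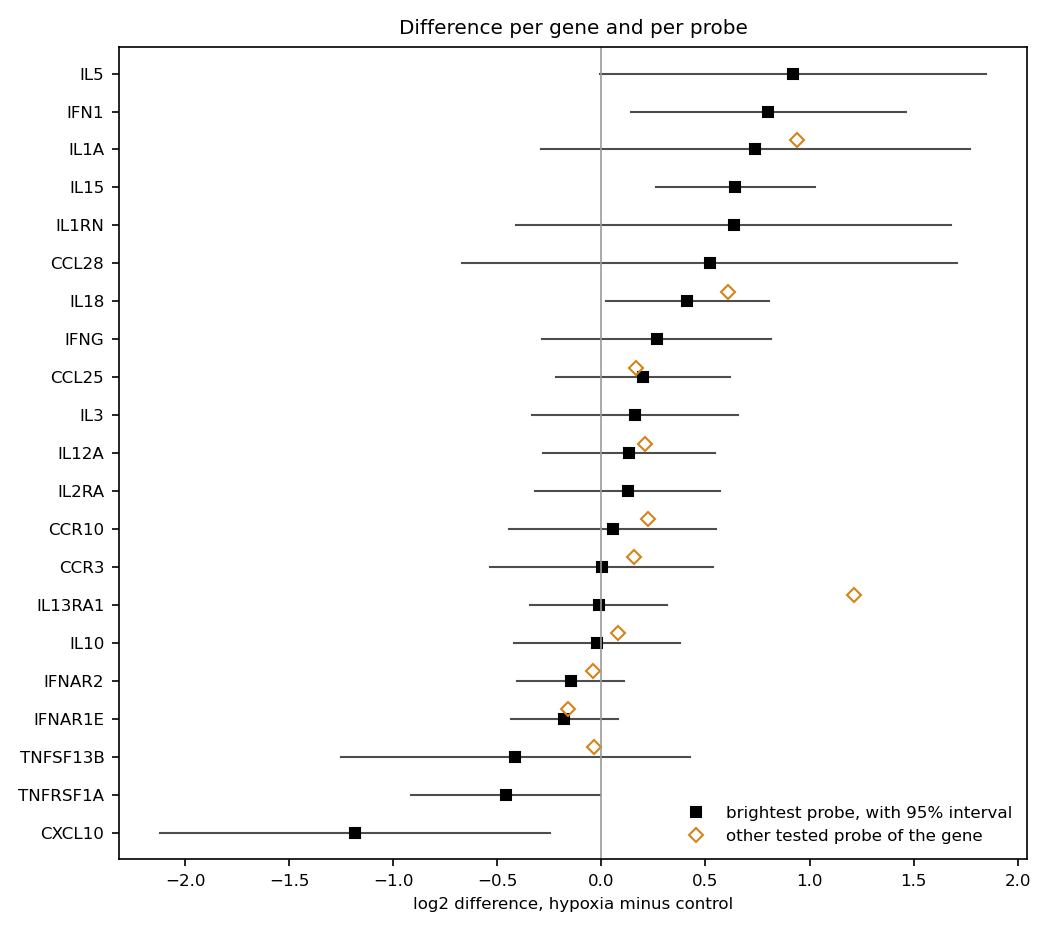
Difference between hypoxia and control (log2) for the representing probe of each of the 21 tested genes (squares, with the 95% interval from limma) and for the other tested probe of the same gene (diamonds). Intervals of IFN1, IL15, IL18, TNFRSF1A and CXCL10 leave out 0, and the second probe of IL13RA1 lies apart from the first at 1.22.

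The other genes of cytokine signalling are set beside these, from a list of 88 genes of which 30 were matched to probes and 28 were tested. None passed the adjusted threshold, 14 of 28 were above 0, and the median difference was -0.014. At an unadjusted p under 0.05 were 5 genes (17.9%, against 15.7% of all probes), 4 higher and 1 lower. The higher ones were the growth factor KITLG at 1.48 (limma adjusted p = 0.0849), NFKBIA, the inhibitor that NF-kappaB itself induces, at 1.40 (limma adjusted p = 0.197), the chemokine XCL1 at 0.75 (limma adjusted p = 0.124) and TGFB2 at 0.36 (limma adjusted p = 0.311). The lower one was the death receptor FAS, at -0.67 (limma adjusted p = 0.259).

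**Figure D5:**
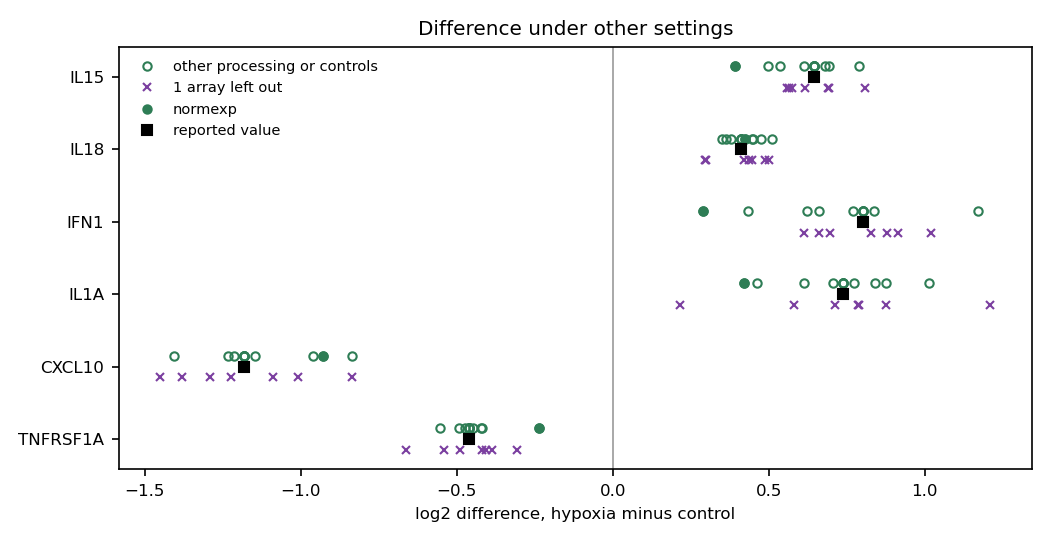
Difference between hypoxia and control (log2) of 6 genes as reported (squares), with normexp background correction (filled circles), under other processing or with the controls of 1 slide (open circles) and with 1 array left out (crosses). No value of these 6 genes changes sign; IL1A ranges from 0.22 to 1.21 and IFN1 falls to 0.29 with normexp correction.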

How the data were processed

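Hypothalamic RNA of 3 hypoxia and 4 control fetuses was hybridised to 1-colour Agilent arrays, grouped by their titles. The processed intensity of each spot, per the file headers, is the background-subtracted output of Feature Extraction 10.1.1.1. The log2 values the authors deposited equal the log2 of that processed intensity within 5e-09, unscaled between arrays (column medians 8.42 to 8.99), with no centring or direction. The test and genome build of the authors are not given in the sources used here.

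Levels were log2 processed intensity minus each array's 75th percentile. Control spots and outlier spots (34 probe values, none of these genes) were left out, saturated spots were kept and repeat spots averaged. The test took the 12711 of 15008 probes that 3 or more of the 7 arrays called well above background, whatever their group, and used limma 3.58.1 (R 4.3.3), 2-sided, with Benjamini-Hochberg adjustment. No tested gene passed the filter through 1 group alone. The p-values weigh each difference between the groups against the spread between fetuses within the groups. As the hypoxia arrays had slide 1 to themselves, a slide difference cannot be told apart from that group difference. The number of arrays limits the precision. The procedure was tested on simulated data with independent noise and no slide effect, so that test says nothing about slides.

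The members and lists were chosen with earlier results of these data known. Genes are named for an unadjusted p under 0.05, for a level among the highest, or where a fixed list of well-known cytokines held them. The remaining members are named for completeness. IL8, IRF1, AQP4, HBB, the pituitary and hypothalamic hormone genes, and T-cell and meningeal markers were named after their values were seen. Of 28 names, 21 matched RefSeq (ARS-UI_Ramb_v3.0) by accession and 7 kept the file's name. Sequences are from the array files. Alternatives were median and quantile scaling, normexp (offset 50), the deposited values, other filters, a random slide term, controls of 1 slide, a replicate block, dropping 1 array at a time, a trended prior and, added after seeing the data, the mean of a gene's tested probes.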

Additional observations from a re-analysis of the deposited data

Results flagged for a closer look

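In IL13RA1, control replicate 3 was at -2.44, apart from the other 3 controls at -2.77 to -2.72, a gap large enough against the range of the 4 to stand out by Dixon's test. Chance alone does so in about 1 of 20 groups, and 21 genes were looked at. Hypoxia replicate 1 had a like level, -2.43, and the cause was not tested.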

How the results depend on the processing

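No member gene passed the adjusted threshold under any alternative. Members at an unadjusted p under 0.05 numbered 5, and 3 by quantile normalization, with normexp, and with the controls of slide 2 or of slide 3 alone, 2 with the replicate block, and 2 to 6 when each array was left out. All tested probes under 0.05 made up 15.7%, and 15.3%, 13.6%, 17.2%, 12.5% and 16.8% in these 5 alternatives, so 3 of 21 members is near that background. With 1 array left out, the share of all tested probes was 10.5% to 16.4%. IL15 stayed under 0.05 in all 19 alternatives, CXCL10 in 17 of 19, IFN1 in 11 of 18, IL18 in 8 of 19 and TNFRSF1A in 7 of 19. The median difference lay between 0.016 (quantile normalization) and 0.22 (slide 3 controls), and between 0.043 and 0.26 with 1 array left out.

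Over all probes, 2 passed the adjusted threshold, and 0 by quantile normalization, without a filter and with the replicate block, 4 and 232 with the controls of slide 3 and of slide 2 alone, 10 with normexp and with the deposited values, 25 among probes seen on all 7 arrays, 57 with the trended prior, and 0 to 6 with 1 array left out. The causes were not tested. At an unadjusted p under 0.05, 1112 of 1990 probes were higher, but 932 of 2001 with median scaling, 914 of 1946 by quantile normalization, 933 of 1724 with normexp and 660 of 981 in the deposited values.

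Signs turned for 6 genes. CCR3 was -0.032 with median scaling, -0.12 by quantile normalization, -0.23 with slide 2 controls and -0.13 with the replicate block. IL2RA was -0.074 by quantile normalization. IL13RA1 was 0.021 with normexp, 0.023 in the deposited values, 0.067 with slide 2 controls and 0.60 as the mean of its probes. That mean takes in the second probe, with control replicates 1 and 2 near background at -8.83 and -9.07. IL10 was 0.014 in the deposited values, 0.024 with slide 2 controls, 0.076 with the replicate block and 0.030 as the mean of its probes. CCR10 was -0.11 with slide 2 controls and IL1RN -0.11 with slide 3 controls. With 1 array left out, CCR3 ranged from -0.13 to 0.18, CCR10 from -0.044 to 0.25, IL10 from -0.13 to 0.076, IL3 from 0.036 to 0.33, IL12A from 0.038 to 0.27, IL2RA from 0.012 to 0.26 and IL13RA1 from -0.14 to 0.063.

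Replicate numbers 1 to 3 occur in both groups. Deviations of same-numbered arrays correlated at 0.12, 0.088 and 0.11, not all above the 0.1 required here to treat the numbers as pairs. Each of these arrays correlated best with its own number. With 3 arrays on each side and correlations this low, such a match can arise without pairing, and the labels do not settle it. CCL28, IFN1, IL1RN and IL5 had no value when a signal on all 7 arrays was required.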

Other observations

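A few cytokine genes carry other names on the array and so fell outside the naming rule. The probes named GRO belong to CXCL1, a neutrophil chemokine, by their RefSeq accession. The first had levels of 6.06, 6.31 and 5.996 after hypoxia and 5.43, 5.46, 5.73 and 5.85 in controls, so that every hypoxia fetus was above every control. Its difference was 0.50 ± 0.15 (SE; limma adjusted p = 0.209), and the second probe gave 0.48 ± 0.15 (limma adjusted p = 0.229). These levels are about as high as those of the astrocyte gene AQP4, at 5.18 to 5.90. Whether the GRO probes read CXCL1 alone, and whether their spots were saturated, was not examined. The probe named GMCSF, which is CSF2, a growth factor of granulocytes and macrophages, was well above background on none of the 7 arrays. IFNT6, an interferon-tau gene, gave -0.38 ± 0.71 and 0.21 ± 0.31 (SE) in its 2 probes, with control replicate 2 at -2.74 in the first against -6.17 to -4.79 on the other arrays.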
